A study of Homo sapiens with 2 samples.

Results

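The genes described are those of the KMT2 family of histone methyltransferases and 3 proteins that work beside it, 10 genes in all: KMT2A, KMT2B, KMT2C, KMT2D, KMT2E, SETD1A, SETD1B, MEN1, PSIP1 and DOT1L. They were taken by name, and every peak that the deposited annotation assigns to one of them was kept, which gave 6 of 6373 peaks. The Flag ChIP library, from PLC/PRF/5 cells transduced with a lentivirus that overexpresses ZFP64, was set against 1 input library from the same cells, made without an antibody. PLC/PRF/5 is an established human liver cancer cell line, and ZFP64 is a zinc finger protein. Neither library has a replicate, no Flag ChIP from cells without a tag was used here, and the peak list cannot show which cells express what, so the cell type was not checked against markers.

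KMT2A to KMT2D, SETD1A and SETD1B add methyl groups to lysine 4 of histone H3 through a SET domain, a mark that lies at active promoters and enhancers. KMT2A and KMT2B are a pair of close relatives that act at promoters, KMT2C and KMT2D act mainly at enhancers, and SETD1A and SETD1B carry out much of the trimethylation at promoters. KMT2E is the divergent member, for which methyltransferase activity is in doubt. MEN1 encodes menin and PSIP1 encodes LEDGF, which together hold KMT2A on chromatin, and DOT1L methylates lysine 79 of histone H3. In acute leukaemias with KMT2A rearrangements, DOT1L and menin are needed by the fusion protein.

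The KMT2A promoter gave the highest fold of the whole list and ZFP64's own promoter the next. The windows below are the 250 bases before the RefSeq start of these genes, 5′ to 3′ on the strand of the gene (RefSeq, GRCh38.p14). They are shown because the longest run of letters that both promoter windows hold on either strand, GGGCCTCGGGAT, is 12 bases long. Capitals mark it.
KMT2A, chr11:118436242-118436491, plus strand: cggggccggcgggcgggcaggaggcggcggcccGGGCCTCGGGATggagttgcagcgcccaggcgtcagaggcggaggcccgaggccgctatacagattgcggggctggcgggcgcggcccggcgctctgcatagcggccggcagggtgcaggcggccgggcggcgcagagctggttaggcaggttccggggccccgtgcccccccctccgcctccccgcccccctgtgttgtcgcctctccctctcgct
ZFP64, chr20:52191780-52192029, minus strand: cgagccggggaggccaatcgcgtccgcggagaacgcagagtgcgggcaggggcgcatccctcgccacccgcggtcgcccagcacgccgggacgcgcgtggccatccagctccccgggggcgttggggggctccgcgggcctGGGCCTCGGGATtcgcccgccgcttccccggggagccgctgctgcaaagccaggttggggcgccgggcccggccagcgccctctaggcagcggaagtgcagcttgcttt

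The shared run was found after the folds were known, so its presence in both promoters is a description. Windows of 300 bases, from 250 bases before each RefSeq start to 50 after it, were searched on both strands. The run occurred in 7 of 35116 windows (0.0199%), those of KMT2A, ZFP64, CAMTA1-AS1, TTC29, KLF5, TMEM255B and VPS4B. Only the KMT2A and ZFP64 windows of these 7, those from which the run was taken, lay under a peak. Of all windows, 10.3% lay under a peak. At KMT2A the run lay 217 to 206 bp before the start, and the summit of the peak was 48 bp downstream of its last base. At ZFP64 the run lay 109 to 98 bp before the start and the summit 347 bp downstream of it. A match of letters is not a site, and the other 5 windows held the same letters without a peak.

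The fold is the authors' own value for each peak, read here as ChIP fragments plus 1 at the summit, divided by the background there plus 1, so it is smaller than the plain ratio of the fragments and background given below. Among the members it ran from 755 at KMT2A (Ensembl ENSG00000118058) through 92.3 at SETD1B (ENSG00000139718), 32.5 at KMT2B (ENSG00000272333) and 9.93 at KMT2D (ENSG00000167548) to 5.49 at KMT2C (ENSG00000055609). A further SETD1B peak, in an intron, had a fold of 4.46. KMT2E, SETD1A, MEN1, PSIP1 and DOT1L had no peak under their own names. The KMT2A value was 115 times the median of all peaks, 6.56, and the intronic SETD1B value was 0.679 times that median.

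**Figure D1:**
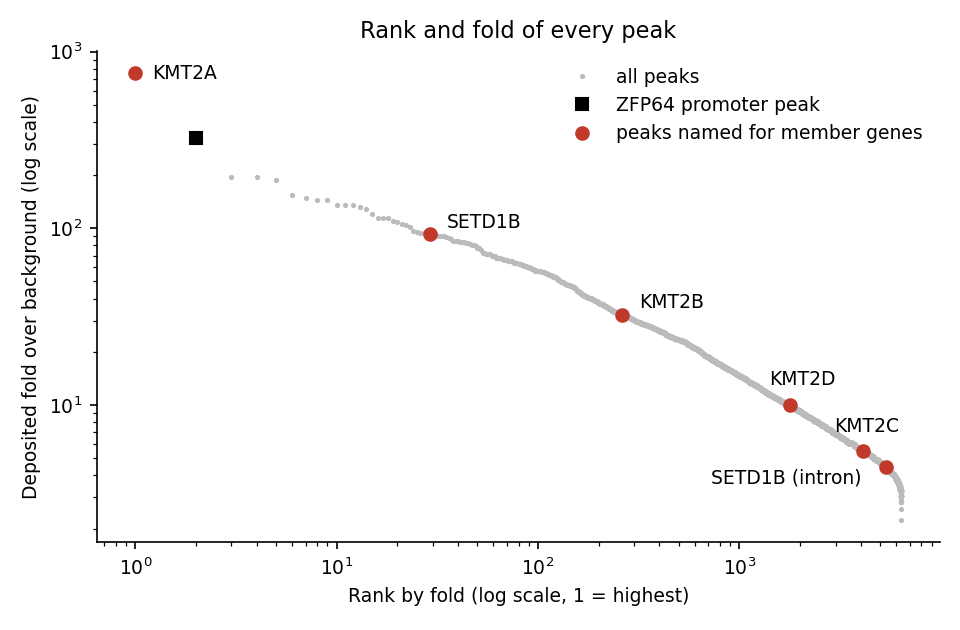
Deposited fold (log scale) against rank by fold (log scale) for all 6373 peaks; red points are the 6 peaks named for member genes and the black square is the ZFP64 promoter peak. KMT2A is at rank 1 with 755, and the other members are spread along the whole ranking, from SETD1B at rank 29 to the SETD1B intron peak at rank 5337.

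How many fragments lie behind these values was inferred from the pair of deposited values, fold and p-value, which under the Poisson model of the peak caller fix both the fragments at the summit and the background expected there. That gave a value for 6300 of the 6302 peaks with a p-value above 0, with a median of 20 fragments and a lowest background of 1.47 fragments. The p-value of the KMT2A peak and that of the SETD1B promoter peak were deposited as 0, so for these only the fewest fragments that their folds allow, at the lowest background, can be given. All intervals are 95% exact Poisson intervals. They cover counting error at the summit only and take the background as fixed.

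The KMT2A peak lay on chromosome 11 from 118434962 to 118437767 (hg38, 2806 bp) and overlapped the annotated start. Its summit was 158 bp upstream of the RefSeq start at 118436492. At least 1863 fragments lay at the summit, which at that number puts the fold between 721 and 790. The q-value was deposited as 0. In fold it was 2.33 times the ZFP64 promoter peak (324). CDIP1 came after that at 195, and these are the peaks nearest to KMT2A in level. No other peak lay within 100 kb, and the nearest, named for PHLDB1 with a fold of 4.76, was 170226 bp away. The peak was thus both the highest of the list and alone in its region, though the KMT2C peak had no other peak within 100 kb either.

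SETD1B encodes the methyltransferase of one of the SETD1 complexes. Its promoter peak, on chromosome 12 from 121802921 to 121805645 (2725 bp), had a fold of 92.3 and ranked 29 of 6373. At least 227 fragments lay at the summit, giving an interval of 80.8 to 105 for the fold. The summit was 548 bp upstream of the deposited transcript start at 121804180. The fold at KMT2A was 8.18 times this value, and their intervals did not overlap.

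KMT2B is the closest relative of KMT2A. Its peak, on chromosome 19 from 35717051 to 35719389 (2339 bp), had a fold of 32.5 (26.7 to 39.2), from 107 fragments (87.7 to 129) over a background of 2.33. The summit was 500 bp upstream of the RefSeq start at 35718003, and the q-value was 1.09e-131. The fold at KMT2A was 23.3 times that at KMT2B, although the 2 peaks differed in width by only 1.20 times. KMT2B still lay above 94.9% of the 4905 promoter peaks.

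KMT2D is the enhancer methyltransferase mutated in Kabuki syndrome. Its peak, on chromosome 12 from 49059149 to 49061000 (1852 bp), had a fold of 9.93 (6.93 to 13.8), from 33 fragments (22.7 to 46.3) over a background of 2.42, with a q-value of 1.63e-23. It covered the RefSeq start at 49060794, but the summit was 707 bp downstream of it. The deposited annotation set the peak against another transcript, which starts at 49059774. KMT2D lay above 68.2% of promoter peaks, so its fold was moderate where its width was not.

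KMT2C is the relative of KMT2D. Its peak, on chromosome 7 from 152310555 to 152310825 (271 bp), had a fold of 5.49 (3.17 to 8.97), from 14 fragments (7.65 to 23.5) over a background of 1.73, with a q-value of 8.67e-07. It was classed as promoter because it lay 1471 bp from the start of an annotated transcript inside the gene. From the RefSeq start of KMT2C, at 152436003, its summit was 125312 bp downstream, and no peak lay over that start. The nearest peak to the gene that was named for another gene, the noncoding LINC01003 (7.80), was 28207 bp outside it. The counting intervals of KMT2D and KMT2C overlapped, which is not a test of their difference, and none was made. The steps between KMT2A and SETD1B, SETD1B and KMT2B (2.84 times), and KMT2B and KMT2D (3.27 times) separated folds whose intervals did not overlap.

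**Figure D2:**
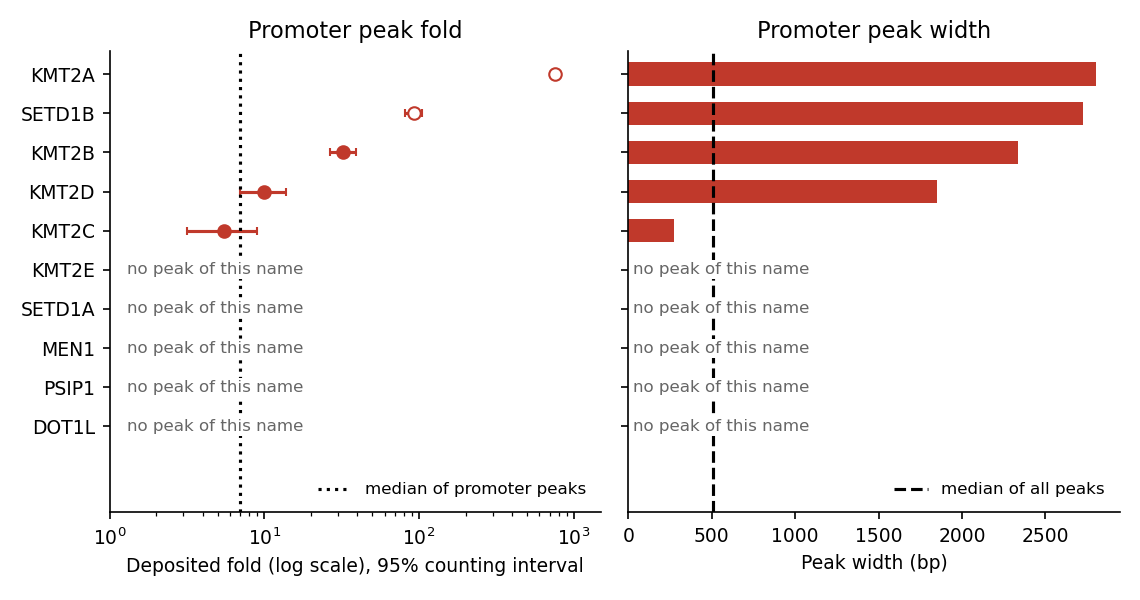
Deposited fold with its 95% counting interval (left, log scale) and peak width in bp (right) for the promoter peak of each member; open circles are KMT2A and SETD1B, whose intervals use the fewest fragments their folds allow, and broken lines are the medians of promoter peaks (6.98, left) and of all peaks (506 bp, right). Folds span 755 to 5.49, whereas the KMT2A, SETD1B, KMT2B and KMT2D peaks are all at least 1500 bp wide.

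Width set the members apart less than fold did. Peaks of at least 1500 bp made up 6.84% of the list, and the KMT2A, SETD1B, KMT2B and KMT2D promoter peaks, 4 of the 6 member peaks, were that wide. By width KMT2A ranked 19, SETD1B 21, KMT2B 59 and KMT2D 201 of 6373. The KMT2C peak was narrower than all but 2.17% of peaks.

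By name, 5 of the 10 members had a promoter peak (within 3 kb of an annotated start), against 20.3% of the 19974 protein-coding genes. Promoter folds of 10 or more belonged to 3 members, KMT2A, SETD1B and KMT2B, against 6.97% of the protein-coding genes. Folds of 90 or more belonged to KMT2A and SETD1B, against 0.155%. That cut lies just below the SETD1B fold of 92.3, so this contrast depends on where the cut was placed. Without KMT2C, 4 of 10 members were left with a window of 1 kb (19.4% of protein-coding genes) or with a −log10 q of at least 10 (11.6%). The highest promoter fold had a median of 32.5 over the 5 members with such a peak and of 7.39 over the 4049 protein-coding genes with one. The list was drawn up with the KMT2A peak already known and holds only 10 genes, so these shares describe it and carry no test.

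Naming by the nearest start gave the peaks inside DOT1L to a neighbouring gene. The RefSeq table places DOT1L on chromosome 19 from 2163933 to 2232578, and 2 peaks lay inside that span, both named for the neighbouring gene AP3D1, which encodes an adaptor protein subunit of vesicle traffic. The peak nearer the DOT1L start, from 2165056 to 2165896, had a fold of 9.10 from 32 fragments (21.9 to 45.2), and its summit was 1516 bp downstream of that start. It was classed as promoter at a deposited distance of -591 bp from an AP3D1 start, while its nearer edge was 1123 bp from the DOT1L start. The other, from 2170482 to 2170959, had a fold of 8.21 from 21 fragments (13.0 to 32.1). The deposited class of this peak is intron 1 of 27 of the DOT1L transcript, although its deposited gene name is AP3D1. Its deposited distance from an AP3D1 start was -6017 bp, while its nearer edge was 6549 bp from the DOT1L start. Both folds lay inside the counting interval of KMT2D. Counted by any peak within 3 kb of either RefSeq gene end, 5 of the 10 members were again reached, with DOT1L in place of KMT2C, against 23.7% of protein-coding genes. In that count DOT1L was reached by a peak named for AP3D1. SETD1B was reached by a peak named for RHOF (fold 6.15), 2863 bp after its RefSeq start, and not by its own promoter peak. AP3D1 has a further peak at one of its starts, 12442 bp before the DOT1L start, with a fold of 18.7.

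Peaks under other names also lay inside SETD1B, in a wider cluster. The RefSeq table begins the gene at 121790155, well before the deposited transcript start, and 5 peaks lay inside its span. Of these, 3 were under other names, the highest of them assigned to the noncoding LINC01089 with a fold of 20.6 from 94 fragments (76.0 to 115). The others were named for RHOF, with folds of 6.15 and 4.27. The LINC01089 peak and the RHOF peak of 6.15 overlapped annotated starts of the genes they were named for. The RHOF peak of 4.27 was at a deposited distance of -1888 bp from a RHOF start. The LINC01089 peak was separated from the SETD1B promoter peak by 1845 bp. The intronic SETD1B peak, from 121811712 to 121812181, held 21 fragments (13.0 to 32.1) over a background of 3.94, the highest background among the member peaks with a recovered value.

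The remaining members had no peak in or at the gene. SETD1A, the close relative of SETD1B, had its nearest peak at ORAI3, 8370 bp away with a fold of 7.07. For MEN1 it was at SF1, 24927 bp away (fold 7.36), for PSIP1 at SNAPC3, 40737 bp away (fold 8.79), and for KMT2E at SRPK2, 273026 bp away (fold 5.97). At this depth a peak had few fragments when its fold was low, and no detection limit was worked out for these genes. A weak signal at them may have gone uncalled and is not shown to be absent.

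**Figure D3:**
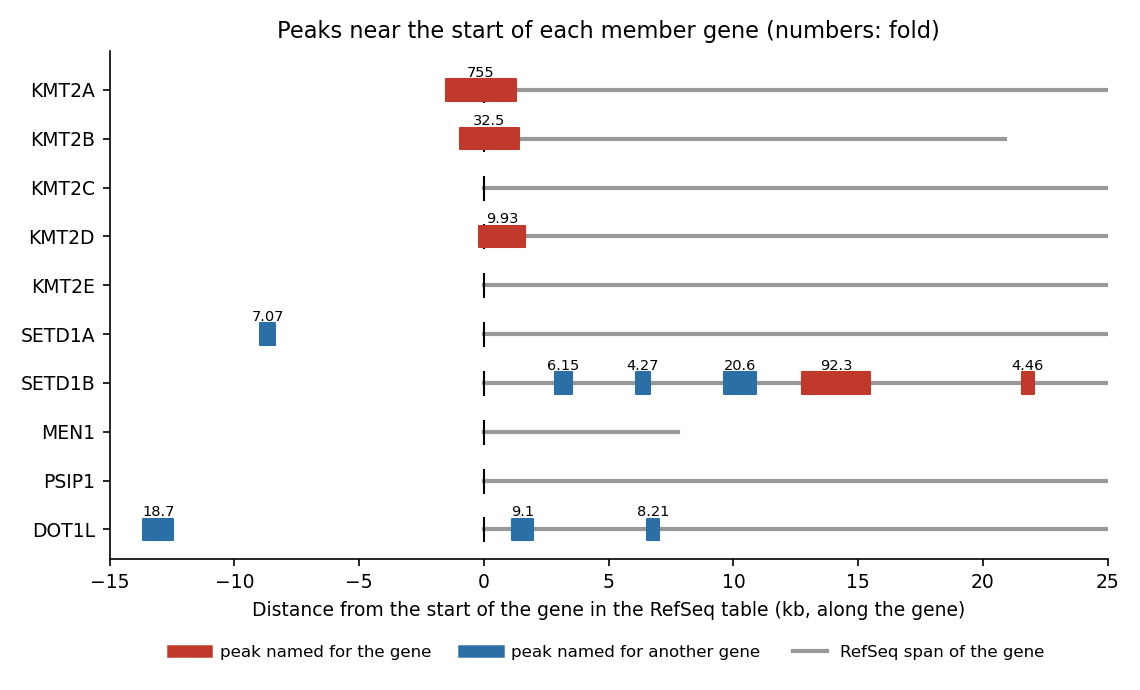
Peaks within 15 kb before and 25 kb after the start of each member in the RefSeq table, in kb along the gene, with the fold of each peak above it; red peaks carry the gene's own name, blue peaks another name, and grey lines are the gene. KMT2A, KMT2B and KMT2D have 1 peak each over the start, and SETD1B has 5 peaks inside its span. DOT1L has 2 inside its span and a further one before its start, all under another name. The KMT2C peak lies outside the plotted range.

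When peaks were set directly over RefSeq promoter windows, 8 of the 10 members had a window and 3 of these, KMT2A, KMT2B and KMT2D, lay under a peak, against 15.7% of protein-coding genes with a window. The KMT2C window did not. SETD1B and DOT1L had no window and are not compared here. Base composition did not order the members with a window as fold did. The KMT2A window had 76.3% G and C and 36 CpG, the KMT2B window 83.3% and 48, and the KMT2D window 65.0% and 27. The window of KMT2C, with no peak, had 88.7% and 56 CpG, more of both than KMT2A. That of SETD1A, also with no peak, had 65.0% and 30 CpG, and that of KMT2E 69.0% and 35. Across all 35116 windows, the median was 71.3% and 33 CpG under a peak, and 57.0% and 10 CpG without one. The windows of PSIP1, at 2 starts, had 64.0% and 33 CpG and 70.7% and 29 CpG, and those of MEN1 had 68.0% and 25 CpG and 58.3% and 20 CpG. None of these lay under a peak, and in both measures each of the SETD1A and MEN1 windows lay between the medians with and without a peak.

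**Figure D4:**
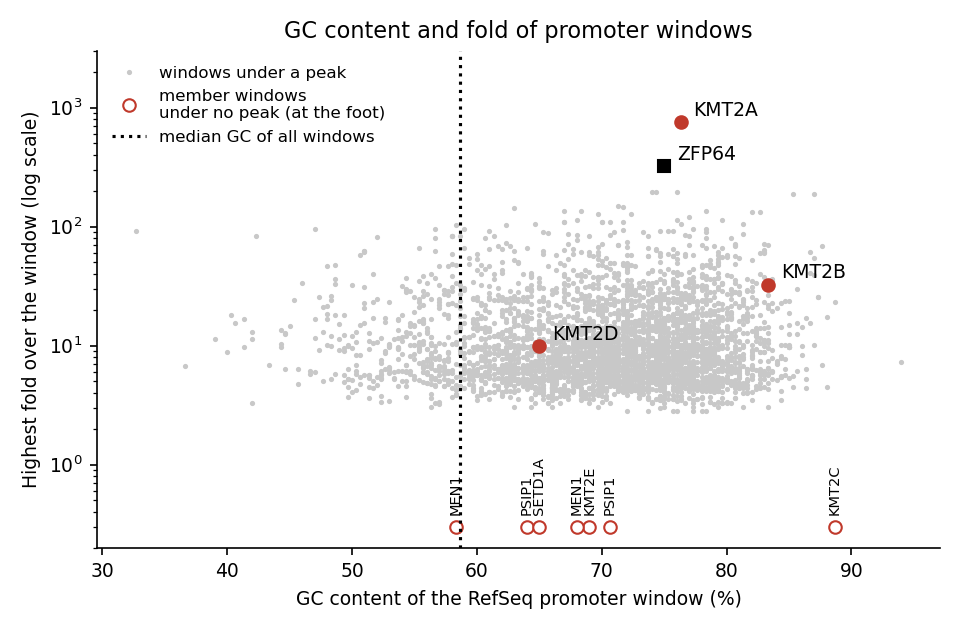
Highest fold over each RefSeq promoter window (log scale) against its GC content in percent; grey points are the 3629 windows under a peak, filled red points members, the black square ZFP64, and open circles at the foot are member windows under no peak, which have no fold. KMT2A at 76.3% has the highest fold and KMT2C at 88.7% has no peak, and MEN1 and PSIP1 appear at 2 starts each. SETD1B and DOT1L have no window and are not shown.

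Short repeats gave a similar picture. No word of 8 or 9 letters occurred at least 3 times in the KMT2A window on both strands together, but 4 words of 7 letters did, 3 times each. Of these, CCGCCTC was found in 17.9% of all windows, the word CCGGGCC in 14.2%, while CGGGGCC occurred in 17.4% of them and GCCCGCC in 17.7%. Overlapping matches were counted, and matches of GCCCGCC share letters with those of the GC box. Together they made 12 matches in the KMT2A window, 10 in that of KMT2C, 4 at ZFP64, 3 each at KMT2B and KMT2D, 2 each at KMT2E and SETD1A, and 0 to 2 at MEN1 and PSIP1. At least 12 matches were found in 12 windows (0.0342%), KMT2A included. Of these 12, 4 lay under a peak, KMT2A among them by construction, where 10.3% of all windows did. These 12 windows had 66.0% to 94.0% G and C, against a median of 58.7% over all windows, so the 2 shares are not alike. The folds of the other 3, at ABHD17C, RNF213 and FAM149A, were 12.4, 7.27 and 4.86. The words were taken from KMT2A, so its count is high by construction. The 250 bases before the RefSeq starts of KMT2B and KMT2C are shown with these words in capitals, to set a paralogue under a peak beside a paralogue under none.
KMT2B, chr19:35717753-35718002, plus strand: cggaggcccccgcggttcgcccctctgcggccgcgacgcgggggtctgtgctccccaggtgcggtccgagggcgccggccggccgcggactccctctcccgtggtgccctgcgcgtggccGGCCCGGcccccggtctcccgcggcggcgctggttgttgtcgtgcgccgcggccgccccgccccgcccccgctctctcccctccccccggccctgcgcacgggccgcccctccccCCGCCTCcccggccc
KMT2C, chr7:152436004-152436253, minus strand: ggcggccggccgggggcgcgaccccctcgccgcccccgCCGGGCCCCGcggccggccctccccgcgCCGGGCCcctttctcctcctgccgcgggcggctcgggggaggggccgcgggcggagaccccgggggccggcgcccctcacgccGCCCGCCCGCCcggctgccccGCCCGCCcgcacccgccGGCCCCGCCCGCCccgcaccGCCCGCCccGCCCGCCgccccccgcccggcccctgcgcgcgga

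Of motifs searched by name on both strands, the GC box GGGCGG had 3 matches in the KMT2A window, 15 in that of KMT2C, 5 at KMT2B, 4 at SETD1A, 2 at KMT2D, 1 at KMT2E and 0 to 2 at MEN1 and PSIP1, and 45.0% of all windows held it. The NRF1 palindrome of 10 letters (1.24% of windows) and the ETS-type word CCGGAAGT (4.14%) were in none of the member windows. AAGATGGCG, a word of the YY1 type, was in that of KMT2B only (1.75% of windows). CCAAT was at MEN1 alone among the members (34.6% of windows). That these letters are missing from a window says nothing about the factors.

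The partners and relatives of these enzymes were counted from 8 further lists holding 57 genes. Of the 57, 19 (33.3%) had a promoter peak under their own name, against 20.3% of protein-coding genes, a share that also stands behind the counts of the single lists below. Their median fold was 7.29, below the promoter folds of KMT2A, SETD1B, KMT2B and KMT2D, above that of KMT2C, and close to the median of all protein-coding genes, 7.39. Of the 6 core genes, which encode WDR5, RBBP5, ASH2L and DPY30, shared by KMT2 and SETD1 complexes, and HCFC1 and HCFC2, found with some of them, WDR5, the scaffold, had a fold of 13.4 from 32 fragments (21.9 to 45.2), and ASH2L, which activates the SET domain, had 5.24 from 18 (10.7 to 28.4), while RBBP5, DPY30, HCFC1 and HCFC2 had no promoter peak under their names. Among 4 subunits particular to KMT2C and KMT2D complexes, only the coactivator NCOA6 had one (5.54). CXXC1, WDR82 and BOD1L1, the SETD1 complex list, had 0 of 3, and TASP1, the protease that cleaves KMT2A, had none either. WDR5, the highest of these subunit genes, was thus far below KMT2A and SETD1B in fold.

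Of the 11 genes of the super elongation complex, which releases paused polymerase and contains several KMT2A fusion partners, 4 had a promoter peak. AFF1, a frequent fusion partner, had a fold of 21.2 from 69 fragments (53.7 to 87.3), AFF4, the scaffold, had 8.47, and the kinase CDK9 had 4.86. In the DOT1L complex, MLLT6 alone of 4 had a promoter peak (4.64). Of 8 genes known as KMT2A fusion targets in leukaemia, MYB had a fold of 8.67, CDK6 7.58 and PBX3 7.29, while HOXA7, HOXA9, HOXA10, MEIS1 and MEF2C had none under their names. As at DOT1L, a peak could lie near a listed gene under another name. Counted within 3 kb of either RefSeq gene end, whatever the peak's name, 25 of the 57 genes had a peak, against 23.7% of protein-coding genes. That count took in DPY30, PAXIP1, ELL, MEIS1, SETD2, SETDB2 and EHMT2 and left out AFF1.

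Other histone lysine methyltransferases had a promoter peak at 8 of 20 genes. EZH2, the Polycomb methyltransferase of lysine 27 of histone H3, had a fold of 23.4 from 71 fragments (55.5 to 89.6). KMT5A, which monomethylates lysine 20 of histone H4, had 18.5, and KMT5B, which adds further methyl groups there, had 13.2. None of these lists held a gene with a fold as high as that of KMT2B.

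**Figure D5:**
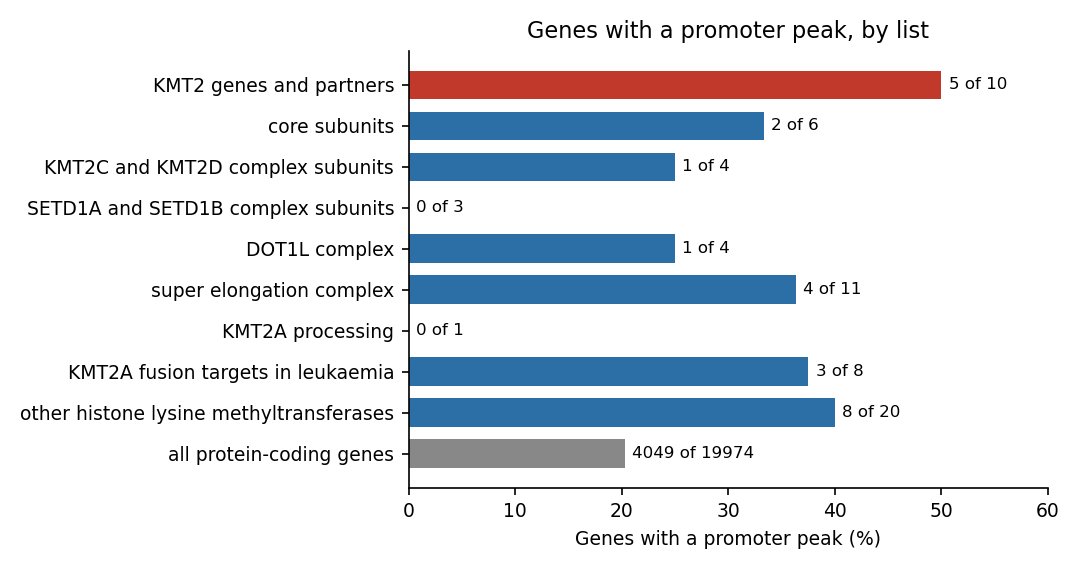
Percent of the genes of each list with a promoter peak, with the counts beside the bars; the member genes are in red, further lists in blue and all protein-coding genes in grey. The members are at 5 of 10, the further lists between 0 of 3 and 8 of 20, and all protein-coding genes at 4049 of 19974.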

How the data were processed

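One Flag ChIP and 1 input library were compared through the deposited list of narrow peaks. Positions are in hg38. The tools listed, per the submitters' processing notes, are MACS2 2.2.7.1, Bowtie2 2.4.1, deepTools 3.5.0 and SAMtools, whose order the notes leave out. In the sources used here the annotation tool is not named. The fold ratio, the p-value and q-value of each peak are as the authors deposited them, and compare these 2 libraries, not conditions. Gene, class and distance to the start are the authors' deposited annotation. Summit positions are the deposited start plus the deposited offset and may be off by 1 bp.

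Genes were matched by identifier to a RefSeq table (GRCh38.p14), and all 10 members and 57 listed genes were found. Fragments were recovered with Python 3.11.15 and SciPy 1.17.1 from fold = (fragments + 1) / (background + 1) and the Poisson p-value, with a tolerance of 0.001 on the −log10 p scale. Library totals were not used here. The rule for named genes took all members, up to 3 genes per list by promoter fold, and the 2 peaks next to KMT2A. Listed genes without a peak, neighbouring genes and genes whose windows held a given word are named outside that rule, after their values were seen. Members and lists were chosen with earlier results of these data known. With 1 library per group no test was made, and counts were set beside the share of all protein-coding genes.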

Additional observations from a re-analysis of the deposited data

How the results depend on the processing

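Of 26 alternatives over 6 results, 17 left a value within 1.5 times that reported and 9 moved it. KMT2A had rank 1 among promoter peaks too, which its rank 1 among all peaks had already fixed. By q-value 68 peaks, KMT2A included, were deposited as 0 and share rank 1, so that alternative, though among the 17, says nothing about stability. With any assigned peak, or with the q limit, the ratio of KMT2A to SETD1B was likewise fixed at 8.18. The only member peak added was the intronic one of SETD1B, and both promoter peaks had a q-value deposited as 0. By width the rank of KMT2A was 19, and its width was 1.03 times that of SETD1B, the next member, in place of 8.18 for fold. A −log10 q of at least 10 and a window of 1 kb each left out KMT2C, which raised the median fold of the members to 62.4, and the q limit left 11 listed genes in place of 19. Peaks within 3 kb of either RefSeq gene end gave 25 listed genes and 5 members, with DOT1L in place of KMT2C. SETD1B was then reached only through a RHOF peak. The median fold was 9.93, since the SETD1B promoter peak lay outside. Peaks over RefSeq promoter windows, chosen after seeing the data, gave 3 members and 12 listed genes, with windows for only 8 members and 50 listed genes. Words of 7 letters gave 4 repeated words, and words of 8 letters gave 0, which fixed the 0 for words of 9 letters. The ratio of KMT2A to SETD1B in fragments could not be given, as both p-values were deposited as 0, and without a genome, windows centred on the summit were not run. No paired analysis was possible because there was 1 Flag ChIP and 1 input. Depth limits the KMT2C value most, with 14 fragments.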
